A study of Homo sapiens with 6 samples.

Results

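The EGR genes encode zinc finger transcription factors and the NAB genes encode the corepressors that bind them. The members were the rows of the deposited gene table named EGR1, EGR2, EGR3, EGR4, NAB1 or NAB2. A row was found for 5 of these 6 names among 19823 genes (EGR1, EGR3, EGR4, NAB1 and NAB2), and EGR2 was not analysed here. Poly(A) RNA-seq gave their transcript levels in iNeurons, glutamatergic neurons made by inducing Neurogenin 2 in the human pluripotent stem cell line WTc11. There were 3 untreated samples and 3 treated with isoproterenol, a β-adrenergic receptor agonist, and the labels give neither dose nor duration. Both groups carried CRISPR interference against RBM12, which encodes an RNA-binding protein, in the parental line with its native receptors. Libraries with a control guide were not analysed here, and every value below describes RBM12-depleted neurons of 1 clonal line. Nothing in the labels says that replicates were separate cultures, and p-values therefore measure the spread between these samples, which may be technical.

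EGR genes are immediate early genes, which neurons transcribe soon after a stimulus without making new protein first. Serum response factor, acting with ternary complex factors at CArG boxes, and CREB, the factor that protein kinase A phosphorylates when cAMP rises, are among the known activators of EGR1. EGR proteins bind GC-rich sites in their target genes, and NAB1 and NAB2 bind EGR1 and EGR3 through an inhibitory domain and recruit the NuRD chromatin remodelling complex. NAB2 is itself a described target of EGR1, which makes it part of a known feedback loop.

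Sequences around the starts of EGR1, EGR4, NAB1 and NAB2 are shown so that these elements can be read beside the levels reported below. Windows ran from 250 bases before to 50 after each RefSeq start (GRCh38.p14), and positions count the first transcribed base as 1. The start of EGR3 was not searched. Capitals mark the CArG boxes and the CRE cores, written TGACG, the short form of the cAMP response element (CRE) that CREB binds. Both strands were searched, and TGACG reads CGTCA on the opposite one. The region before the EGR1 start, at chr5:138465229-138465478 on the plus strand, held both kinds of element.
EGR1: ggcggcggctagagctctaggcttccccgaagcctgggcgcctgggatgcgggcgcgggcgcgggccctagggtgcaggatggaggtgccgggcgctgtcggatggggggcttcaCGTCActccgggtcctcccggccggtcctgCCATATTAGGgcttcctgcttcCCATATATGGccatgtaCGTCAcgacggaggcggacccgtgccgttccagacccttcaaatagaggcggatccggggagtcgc
Within this window, the EGR1 CArG boxes lay at -105 to -96 and at -83 to -74 from the start. On either side of them was a CRE core, at -135 to -131 and -66 to -62. Bases further upstream were not searched. A CArG box was found in 1.29% of 35116 windows of the same length, and 0.0313% held at least 2. The EGR4 window held no CArG box and 2 CRE cores, shown here from chr2:73293709-73293737 and chr2:73293641-73293669, both on the minus strand.
EGR4 at -177: cgacaacaacaaCGTCAcagctcgagctt
EGR4 at -109: tttgggcatttaCGTCAcggcggcagggc
At least 1 CRE core was found in 24.6% of all windows and at least 2 in 6.02%. The full CRE, TGACGTCA, was in 1.85% of windows and in none of those searched for EGR1, EGR4, NAB1 and NAB2.

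The NAB windows held no CArG box. At the most upstream RefSeq start of each gene they held sites of the kind that EGR proteins bind. These sites are shown because NAB2 is a described EGR target. They were searched as GCGGGGGCG and GCGTGGGCG on both strands, and the capitals mark them. The NAB2 site, at chr12:57089042-57089070 on the plus strand, lay at -62 to -54.
NAB2: tgtgcgtcctGCGGGGGCGgaggcgcgga
NAB1 was read at its most upstream RefSeq start. It held 2 overlapping sites on the opposite strand at -42 to -34 and -36 to -28 (chr2:190648843-190648871, plus strand shown). It also held a GCGTGGGCG at 14 to 22 after the start (chr2:190648898-190648926).
NAB1 before the start: gcccagcggcCGCCCCCGCCCCCGCccgg
NAB1 after the start: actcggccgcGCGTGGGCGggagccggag
GCGGGGGCG was found in 5.07% of all windows and GCGTGGGCG in 0.795%. NAB1 also had a CRE core across its start, and NAB2 had none. RefSeq gave NAB1 2 further starts, and the first of them, downstream, shared these sites with the window shown. The window of the last start held no EGR site and 1 CRE core. These are matches of letters, and binding was not measured. Gene positions given below are those of GENCODE, which differ from these RefSeq starts for NAB1, NAB2 and EGR4. In GENCODE, NAB1 begins at 190646746, upstream of the RefSeq start used here at 190648895, so its sites lie inside the gene. The NAB2 site likewise lies inside the GENCODE gene, which begins at 57089043. The EGR4 CRE core at -109 lies inside its GENCODE gene too, which on the minus strand begins at 73293701.

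**Figure D1:**
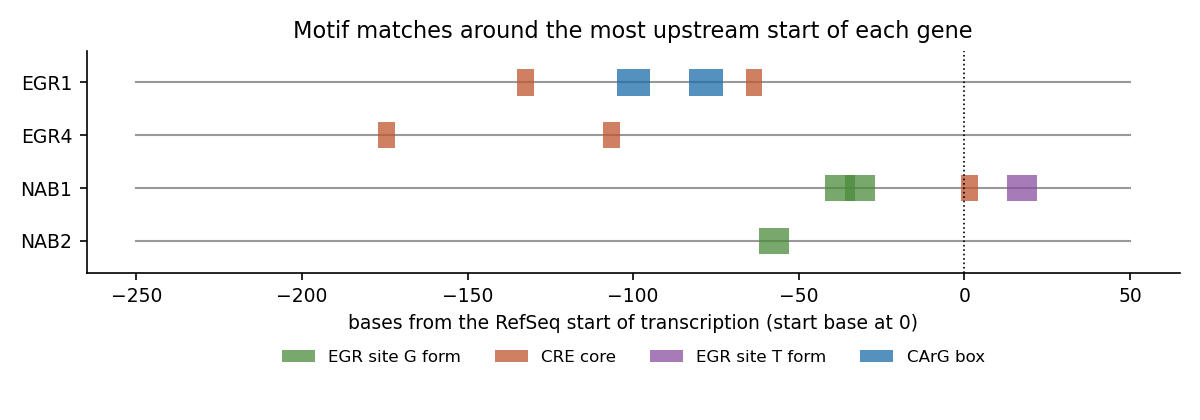
Motif matches from 250 bases before to 50 after the most upstream RefSeq start of EGR1, EGR4, NAB1 and NAB2, with distance in bases on the horizontal axis and the start base drawn at 0. Boxes are matches to a CArG box, a CRE core (TGACG), GCGGGGGCG (G form) or GCGTGGGCG (T form). CArG boxes lie in the EGR1 window, and the EGR sites lie in both NAB windows.

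The deposited value was a normalized count, the number of reads of a gene divided by a size factor for its sample. Whole reads could be recovered from it, and they summed to 18116816 to 21488793 per sample. RBM12 itself was at 244, 279 and 267 normalized counts in untreated replicates 1, 2 and 3 and at 195, 238 and 233 with isoproterenol. Every treated value thus lay below every untreated one, as in 6.19% of all genes tested. Its log2 fold change was -0.25 (limma adjusted p = 0.607, or 0.131 with the replicate block described below). The knockdown could not be checked without control libraries, and the RBM12 exons share 575 bases with those of CPNE1 on the same strand. All 16 genes of a fixed list of neuronal markers had reads, TUBB3 being low at 69.2 to 94.4. The astrocyte markers had 2 of 5 names in the table, AQP4 and S100B, at a summed 134.4 to 175.1 normalized counts, and none of 6 names for microglia and endothelium had a row. The summed neuronal markers ran from 737200 to 783200 in untreated samples and from 719500 to 736000 with isoproterenol. NEFL and NEFM, neurofilament genes, made up most of that sum, while 10 of the 16 markers had a log2 fold change above 0, their median was 0.00, and with the replicate block described below 3 fell and none rose. Of 6 oligodendrocyte and Schwann cell names 4 had rows, summing to 1029 to 1083 untreated and 1105 to 1179 with isoproterenol, mostly from MBP, a myelin protein gene, at 942, 913 and 956 against 1085, 972 and 1016. The 3 GABAergic markers summed to 55.3 to 60.0 and 66.9 to 79.0. The part of these marker levels in the results below was not tested.

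EGR1, the best known activity-dependent member (chromosome 5, 138465479 to 138469303, plus strand, 3137 exonic bases), was about doubled in every pair of same-numbered samples. Untreated replicates 1, 2 and 3 had 119, 268 and 227 normalized counts, and the isoproterenol replicates had 247, 536 and 580. Replicate 1 was the lowest of its group in both conditions, so that the lowest treated sample fell below the highest untreated one and the groups overlapped. The group means were 204.5 ± 76.9 and 454.4 ± 180.5 (SD, n = 3 each). Within the pairs the ratio was 2.08, 2.0 and 2.56.

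These pair ratios lay closer together than the samples within either group, where the highest EGR1 value was 2.25 times the lowest among untreated samples and 2.34 times among treated ones. Fitted with limma across all 18130 genes past the limit on reads, the EGR1 log2 fold change was 1.13 (SE 0.51) and did not pass FDR 0.05 (adjusted p = 0.698). With replicate number as a block, the SE fell to 0.09 and EGR1 rose (adjusted p = 2.31e-19), ranking number 8 among all genes. That p-value rests on a variance that limma moderates across genes. On the 3 pairs alone, the two-sided exact sign-flip test gave p = 0.25, the smallest that 3 pairs allow. The same-numbered samples deviated together over 11587 genes, at correlations of 0.269, 0.493 and 0.388, which is why the blocked values are given. In bulk RNA, more cells transcribing a gene and more RNA of it per cell cannot be told apart.

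Neither of the other EGR members was abundant. EGR3, also known to respond to activity in neurons (chromosome 8, 22687659 to 22693480, minus strand), had 3, 3 and 2 recovered reads in untreated replicates 1, 2 and 3. With isoproterenol it had 6, 13 and 30 reads, so that the groups did not overlap. The normalized counts were 3.13, 2.90 and 2.07 against 5.99, 15.0 and 30.8.

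EGR3 fell under the limit of more than 5 reads in at least 4 samples and was not among the genes tested in the main fit. Summed over each group it had 8 against 49 reads, a normalized ratio of 6.37 with an exact 95% interval of 2.99 to 15.6 that covers counting error only. The ratio differed widely between pairs, from 1.91 in pair 1 (interval 0.408 to 11.8) to 14.9 in pair 3 (3.77 to 128.4). A looser limit, in 3 samples, would admit EGR3 through its treated samples alone, so no test of it is given. Its exons share 164 bases with a lncRNA on the opposite strand.

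EGR4, a member found mainly in the nervous system (chromosome 2, 73290929 to 73293701, minus strand), had 1, 6 and 6 recovered reads in untreated replicates 1, 2 and 3 and 6, 7 and 20 with isoproterenol. The treated sample of each pair was the higher one, but the groups overlapped, since treated replicate 1 matched the reads of 2 untreated samples. Its log2 fold change was 1.26 (SE 0.58, limma adjusted p = 0.636) and did not pass with the block either (SE 0.54, adjusted p = 0.193). The estimate was 0.66 without untreated replicate 1, 0.78 without isoproterenol replicate 3 and 0.77 with a pseudocount of 5. The summed reads, 13 against 33, gave a normalized ratio of 2.64 (exact 95% interval 1.35 to 5.47, counting error only). A change of EGR4 was therefore not resolved by the fits over samples. The parts of depth and of spread between samples in this were not tested.

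**Figure D2:**
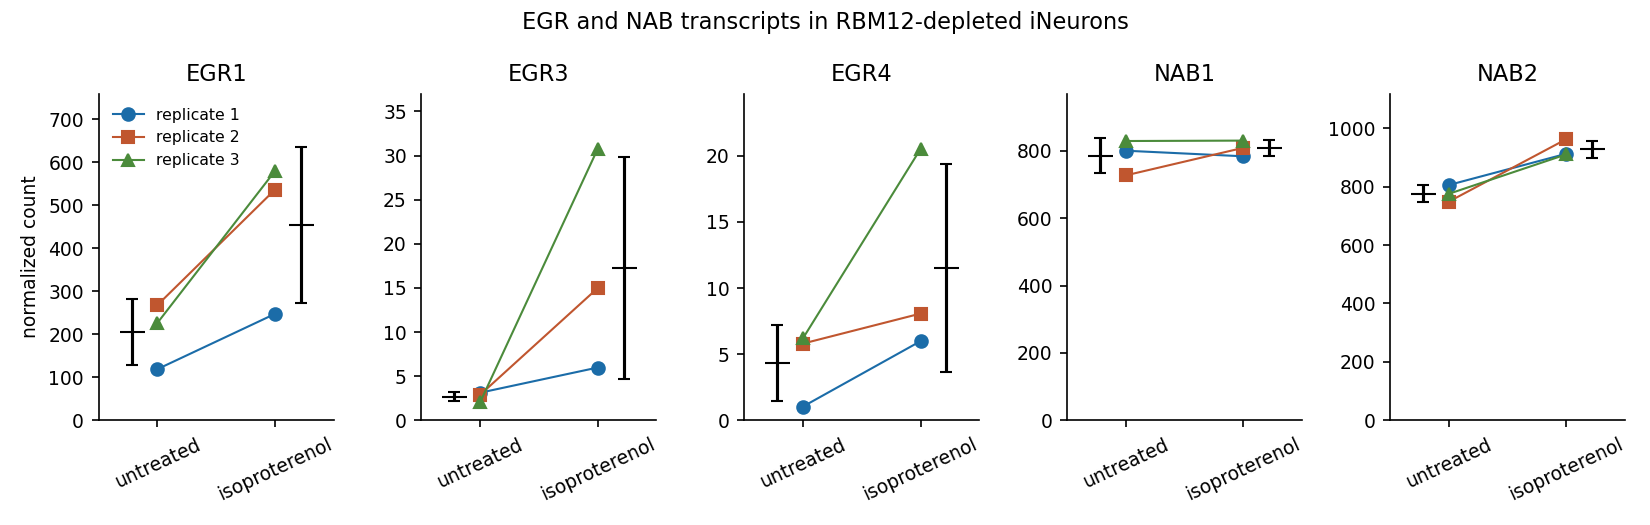
Normalized counts of the 5 members in untreated and isoproterenol samples, each panel on its own vertical axis from 0. Lines join samples with the same replicate number, and black bars give the mean and SD of 3 samples. EGR1, EGR3, EGR4 and NAB2 were higher with isoproterenol in all 3 pairs, and NAB1 stayed between 727 and 830.

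The corepressors had the highest normalized counts of the members, and their estimated changes differed. NAB2 (chromosome 12, 57089043 to 57095476, plus strand) had 805, 748 and 775 normalized counts in untreated replicates 1, 2 and 3 and 912, 962 and 910 with isoproterenol. Every treated sample lay above every untreated one. The means were 776.0 ± 28.6 and 927.9 ± 29.4 (SD, n = 3 each), a difference larger than the spread within either group.

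The NAB2 log2 fold change was 0.26 (SE 0.06) and missed FDR 0.05 over all genes in limma (adjusted p = 0.218). NAB2 rose when the pairs entered the fit (adjusted p = 4.35e-04), with log2 differences of 0.18, 0.36 and 0.23 in pairs 1, 2 and 3. For NAB2 too, the exact sign-flip test on the 3 pairs gave p = 0.25. Its exons share 69 bases with STAT6, a cytokine-activated transcription factor gene on the opposite strand, and whether counting used the strand is not given in the sources used here. STAT6, looked up after its values were seen, also had non-overlapping groups, at 585, 517 and 474 against 698, 615 and 637 (log2 fold change 0.31, limma adjusted p = 0.273, or 3.49e-04 with the block). The part of shared reads in the NAB2 difference was not tested.

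NAB1, the other corepressor (chromosome 2, 190646746 to 190692766, plus strand), had 800, 727 and 829 normalized counts in untreated replicates 1, 2 and 3 and 783, 808 and 830 with isoproterenol. The treated values lay inside the range of the untreated ones apart from a top value of 830 against 829. The log2 fold change was 0.04 (95% interval -0.10 to 0.18, adjusted p = 0.924), or -0.07 to 0.15 with the block (adjusted p = 0.794). An increase as large as that of NAB2, 0.26, was outside both intervals. Lowest among the untreated samples was replicate 2, and without it the estimate was -0.01.

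**Figure D3:**
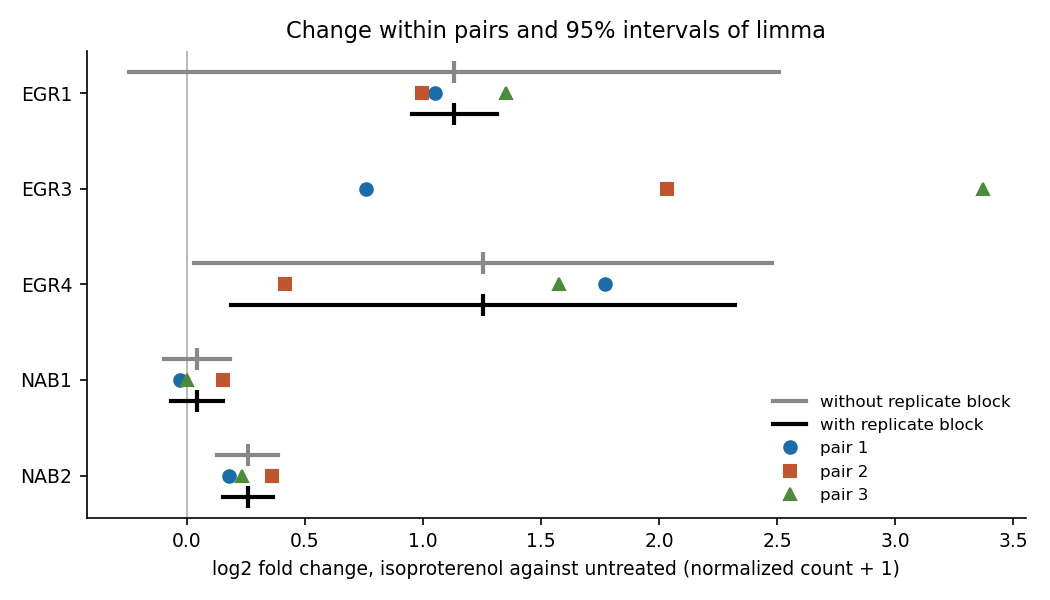
Log2 fold change of each member, isoproterenol against untreated, on log2(normalized count + 1). Coloured points are the 3 pairs, and bars are 95% intervals of limma without (grey) and with (black) the replicate block. EGR3, which was not tested, has points only. The black interval of EGR1 is much shorter than the grey one, and both NAB1 intervals cross 0.

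Set against all genes, 0 of the 4 tested members passed FDR 0.05 in the main limma fit, in which 0.0165% of genes passed (3 of 18130), while 2 had an unadjusted p under 0.05, EGR4 and NAB2, as did 1393 of all genes tested. The same count of 0 came from edgeR and from DESeq2, which gave EGR4 no adjusted p. With the block 2 members passed, both higher, where 2.82% of all genes rose and 2.06% fell. NAB2 was the 1 tested member whose groups did not overlap, against 6.73% of genes higher and 6.19% lower in that way. EGR1, EGR4 and NAB2 were higher in all 3 pairs, as were 18.5% of genes. The median log2 fold change over all genes was 0.00 on values that the size factors had already centred, and all changes are relative to that centre.

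Levels between genes were compared as normalized counts per kilobase of exon. In untreated neurons NAB2 was at 271.2, NAB1 at 160.6 and EGR1 at 65.2, with EGR4 at 1.83 and EGR3 at 0.537. The samples of neighbouring genes did not overlap in that order except EGR4 and EGR3. The coefficient of variation followed a different order, with NAB2 at 3.68%, NAB1 at 6.69% and EGR1 at 37.6% among untreated samples.

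With isoproterenol NAB2 was at 324.3 normalized counts per kilobase, NAB1 at 165.2 and EGR1 at 144.9, followed by EGR4 at 4.86 and EGR3 at 3.43. EGR1 and NAB1 now overlapped, since NAB1 was the higher one in 1 of 3 treated samples, and so did EGR4 and EGR3. The spread of EGR1 (coefficient of variation 39.7%) again exceeded those of NAB2 (3.17%) and NAB1 (2.89%).

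Whether factor and corepressor moved by different amounts was read from ratios within each sample, in which the size factor of the sample nearly cancels. For EGR1 to NAB2, the ratio was 0.148, 0.358 and 0.292 in untreated replicates 1, 2 and 3 and 0.271, 0.558 and 0.637 with isoproterenol. The log2 ratio was higher by 0.87, 0.64 and 1.12 in the pairs. Replicate 1 was the lowest in both groups, and the groups overlapped (mean difference 0.88, two-sided exact permutation p = 0.3).

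NAB2 to NAB1 was the steadiest of the ratios. It was 1.01, 1.03 and 0.935 in untreated replicates 1, 2 and 3 and 1.16, 1.19 and 1.10 with isoproterenol, and the groups did not overlap. The log2 difference was 0.21, 0.21 and 0.23 in the pairs, with an SD of 0.01 between pairs. Counting error alone is wider than that SD, since the 771 NAB2 reads of untreated replicate 1 have a 95% Poisson interval of 717.5 to 827.4. The closeness of the pairs is therefore not read as precision. The exact permutation p was 0.1, the smallest that 3 samples against 3 allow. An exact sign-flip test over the pairs gave p = 0.25, the smallest that 3 pairs allow.

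EGR1 to EGR4 gave no common direction. Its log2 ratio differed by -0.72, 0.58 and -0.23 in pairs 1, 2 and 3 (mean -0.12, exact permutation p = 0.8). EGR4 had 1 read in untreated replicate 1, and no difference between the EGR1 and EGR4 changes was resolved.

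**Figure D4:**
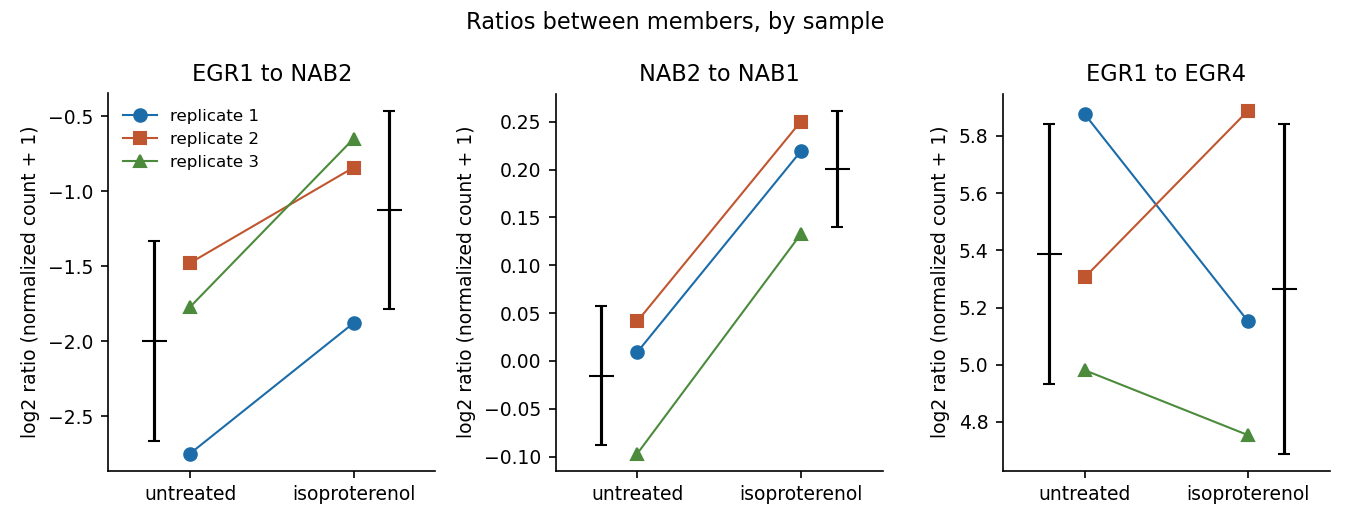
Log2 ratio between members in each sample, on log2(normalized count + 1), with lines joining same-numbered samples and black bars for the mean and SD of 3 samples. The vertical axes differ in span and do not start at 0. NAB2 to NAB1 separates the groups with nearly parallel lines, EGR1 to NAB2 rises in each pair with overlapping groups, and EGR1 to EGR4 crosses.

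Other immediate early genes were measured beside the EGR members. This list was written with earlier results of these data known. Of 26 listed names, 23 were tested, with a median log2 fold change of 0.49. With the block 17 rose and none fell, against 2.82% and 2.06% of all genes. In 17 of the 23 the treated samples all lay above the untreated ones, and in 1, CCN1, all below. Over all genes these shares were 6.73% and 6.19%. The fit without the block called 1 of them, NR4A3, an orphan nuclear receptor gene, which went from 1114, 1339 and 1221 to 1570, 1698 and 1879 normalized counts in replicates 1, 2 and 3 (log2 fold change 0.49, adjusted p = 0.0324).

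FOSB, a partner of JUN in the AP-1 factor, had the largest difference of the list, from 6.18 ± 4.21 to 155.0 ± 105.4 normalized counts (SD, n = 3 each; log2 fold change 4.39, blocked adjusted p = 3.08e-16). NPAS4, a neuron-specific activity-dependent factor, went from 3.80 ± 4.18 to 69.3 ± 37.1 (4.24, blocked adjusted p = 3.89e-14), with 1 untreated sample at 0. FOSL2, also of the AP-1 group, had a log2 fold change of 1.84, above that of EGR1. Smaller rises with the block were those of JUNB at 0.76, KLF6 at 0.43 and JUN at 0.24.

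NR4A1, a nuclear receptor relative of NR4A3, had 103, 110 and 136 normalized counts untreated and 325, 543 and 1024 with isoproterenol, and its log2 fold change of 2.28 did not pass even with the block (adjusted p = 0.119). CCN1, which encodes a matricellular protein, had -0.28 and MYC, a growth regulator, had 0.00, and neither passed. EGR1 at 1.13 thus lay above the median of the immediate early list and below FOSB, NPAS4, NR4A1, FOSL2 and FOS (1.44, looked up after its values were seen) in estimated log2 fold change, an order that was not tested.

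Genes upstream of EGR transcription had small differences. All 32 were tested, with a median log2 fold change of 0.03. With the block 1 rose and 1 fell, where 2.82% of all genes rose and 2.06% fell. The riser was RPS6KA2, a ribosomal S6 kinase gene, at 0.06 (adjusted p = 0.0314), and CRTC1, a coactivator of CREB, fell by 0.17 on the log2 scale (adjusted p = 0.0025). The groups overlapped for both.

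CREM, which encodes a CREB relative, had the highest estimate of the upstream genes, 0.27, from 212.9 ± 9.76 to 256.7 ± 12.6 normalized counts without overlap (SD, n = 3 each; blocked adjusted p = 0.102). SRF, the factor that binds CArG boxes, was at 564, 591 and 636 against 636, 656 and 672 (log2 fold change 0.13, blocked adjusted p = 0.244). The MAPK kinase gene MAP2K2 was estimated at -0.11 (blocked adjusted p = 0.0541). None of these 3 passed with or without the block.

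Described EGR targets, a list that includes NAB1 and NAB2 and was compiled from general knowledge of other cell types, had 25 of 35 names tested. With the block 5 rose, none fell and 20 did not pass, against 2.82% of all genes higher and 2.06% lower. Besides NAB2 the risers were APOE, ARC, CCND1 and VEGFA. The median log2 fold change was 0.04, near that of all genes.

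Among these targets CCND1, the cyclin D1 gene, rose from 3938, 3687 and 3714 to 4749, 4335 and 4298 normalized counts in replicates 1, 2 and 3 (log2 fold change 0.24, blocked adjusted p = 1.92e-10). APOE, a lipid carrier gene, had 680, 525 and 710 against 949, 698 and 939, with overlapping groups but pair differences of 0.48, 0.41 and 0.40 (blocked adjusted p = 6.46e-09). ARC, a synaptic immediate early gene, had a log2 fold change of 0.45 (blocked adjusted p = 0.0049). That of VEGFA, an angiogenic growth factor gene, was 0.24 (blocked adjusted p = 0.035).

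The risers did not share an order over the treated samples. ARC and VEGFA were highest in treated replicate 3, at 281.1 and 598.0 normalized counts, the sample that also had the highest EGR1, EGR3 and EGR4. CCND1 and APOE were highest in treated replicate 1, at 4749 and 948.9, where EGR1 was lowest. NAB2 was highest in treated replicate 2, at 962. A link of these targets to EGR levels was not tested. PDGFA, a growth factor gene, was estimated at -0.17 and did not pass.

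The NuRD subunit genes, whose products NAB proteins recruit, were all tested. With the block 2 of 15 rose and 1 fell, against 2.82% and 2.06% of all genes, with a median log2 fold change of 0.05. CDK2AP1, a small NuRD subunit gene, rose by 0.28 on the log2 scale (blocked adjusted p = 2.51e-05), and CHD5, a neuronal remodeller gene, by 0.08 (blocked adjusted p = 0.0159). RBBP7, a histone-binding subunit gene, fell by 0.13 (blocked adjusted p = 0.0424), with groups that did not overlap. HDAC1, a histone deacetylase gene, was estimated at 0.19 and GATAD2A at -0.02, and neither passed.

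Other zinc finger factors with GC-rich sites were read because they can bind DNA like that of EGR proteins. With the block 2 of 13 tested rose, against 2.82% of all genes. They were MAZ at a log2 fold change of 0.15 (adjusted p = 7.1e-05) and VEZF1 at 0.17 (adjusted p = 0.0286). ZNF219 at 0.15, ZNF148 at -0.10 and SP4, a neuronal Sp factor, at -0.13 did not pass. Of 14 housekeeping genes 1 passed with the block, and their median was -0.02.

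**Figure D5:**
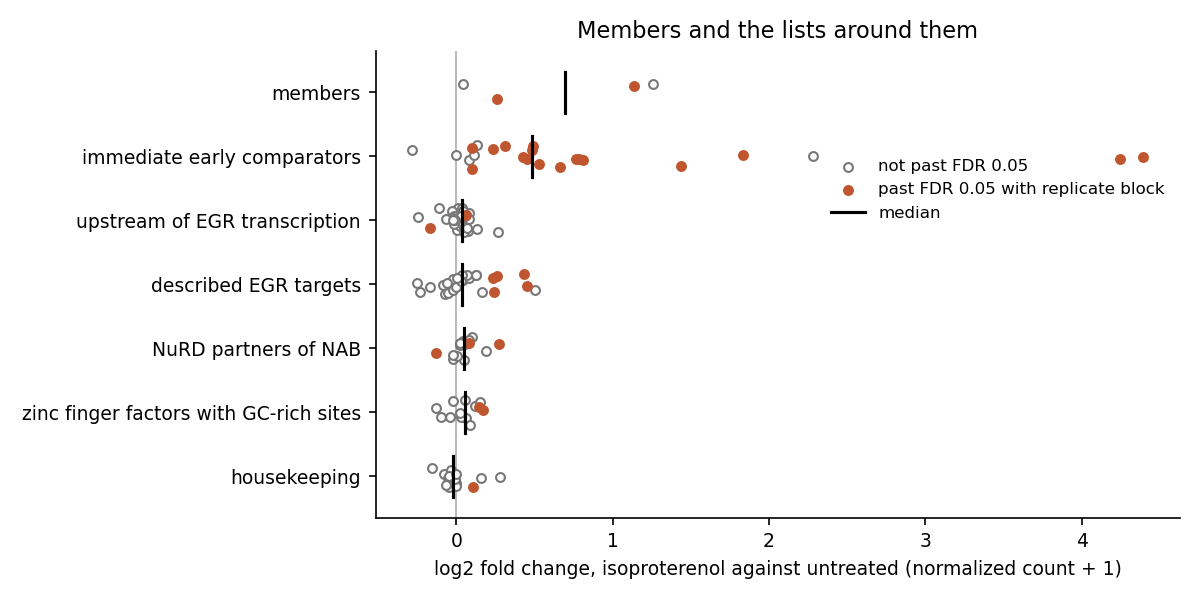
Log2 fold change of the tested members and of the genes in each list, isoproterenol against untreated, on log2(normalized count + 1). Filled points passed FDR 0.05 with the replicate block, open points did not, and black lines are medians. EGR3, under the limit on reads, is not drawn, and NAB1 and NAB2 appear both as members and as described targets. The immediate early genes spread to 4.39, and the other lists lie near 0.

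The members' levels over the 6 samples were correlated with each other and with all genes at a mean of at least 50 normalized counts, as a description only, since the samples share treatment and pairing. EGR1 and EGR4 had a Pearson r of 0.91 and EGR1 and EGR3 one of 0.84, while EGR1 and NAB1 had 0.23. For NAB2, r was 0.815 with EGR3, 0.64 with EGR1, 0.456 with EGR4 and 0.45 with NAB1. Values with EGR3 or EGR4 rest on 30 or fewer reads of that gene per sample. Closest to EGR1 were LRCH4 and SEMA5A, each at r = 0.99, and HMCN2 at 0.98, all with log2 fold changes of 0.23 or less.

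The genes closest to NAB2 were SYNPO, which encodes an actin-associated protein of dendritic spines (327, 302 and 330 against 398, 452 and 421 normalized counts), PROX1, a homeobox factor gene, and MROH1, each at r = 0.98. MKNK1, NAT16 and GNG3 were closest to EGR4, at r = 0.98 or above, and NAPRT, MATN1 and FGFRL1 to NAB1, likewise. These values rest on 6 samples, and nothing about shared control was tested.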

How the data were processed

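Poly(A) RNA was sequenced from 3 untreated and 3 isoproterenol samples. The authors aligned reads to GRCh38 with STAR, counted them with featureCounts and divided them by DESeq2 size factors. The deposited table thus holds a normalized signal per gene. In every sample 100% of values above 0 were whole multiples of 1 read (tolerance 0.01 read), which gave the reads back. Tool versions and annotation are not given in the sources used here. Groups and replicate numbers came from sample titles.

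A gene was tested if at least 4 samples had more than 5 of its recovered reads (18130 of 19823). The test was limma 3.58.1 in R 4.3.3 (trend, robust) on log2(normalized count + 1), two-sided, with Benjamini-Hochberg adjustment over all genes. Fold changes are on this scale, which understates changes of low genes. Same-numbered samples were taken as pairs because each correlated above 0.1 over the genes whose mean reached 100. The fits with edgeR 4.0.16 and DESeq2 1.42.0 used recovered reads. Per-kilobase levels and positions used GENCODE exons. Named genes were the members, RBM12, and from each pathway list the 2 largest rises and falls with a mean of at least 50 plus up to 6 past FDR 0.05, and 3 genes most like each tested member. A gene that this rule also named is not reported here. Members and lists were chosen with earlier results of these data known. The limma script was tested on simulated data.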

Additional observations from a re-analysis of the deposited data

How the results depend on the processing

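Across 24 alternatives the EGR1 log2 fold change was lowest without untreated replicate 1, at 0.79, and highest without isoproterenol replicate 1, at 1.52, and that of NAB2 from 0.21 to 0.30. Both passed FDR 0.05 in each of 9 fits with the replicate block (NAB2 adjusted p 2.50e-04 to 0.0422) and in 0 of 15 without it (NAB2 0.182 to 0.701; EGR1 0.630 to 0.935). EGR4 (0.66 to 1.68) and NAB1 passed in none. The members past FDR 0.05 numbered 0 without the block under every alternative. They numbered 2 with the replicate block in limma, edgeR, with pseudocount 5, with total count scaling and without any 1 pair, and 3 with the limit in at least 3 samples in limma and edgeR, where EGR3 entered through its treated samples alone, so the third call supports nothing. Genes of the pathway lists past FDR 0.05 numbered 1 in the unblocked fit, 27 with the replicate block, 28 with edgeR and the block, 7 with DESeq2, 2 with pseudocount 5, 0 with a mean of at least 50 and 0 to 6 leaving out 1 sample (0 without untreated replicate 1, 6 without isoproterenol replicate 2). With the block they were 27 with the limit in at least 3 samples (28 in edgeR), 27 with pseudocount 5, 25 with total count scaling and 24, 21 and 19 without pair 1, 2 or 3. Over all genes 1 rose and 2 fell without the block, against 511 and 374 with it, 17 and 4 with DESeq2 and 43 and 24 without isoproterenol replicate 2. The EGR1 to EGR4 ratio turned to 0.34 with pseudocount 5, 0.12 without untreated replicate 1 and 0.13 without isoproterenol replicate 3 (leaving out 1 sample, -0.43 to 0.13). The NAB1 estimate ran from -0.0127 (lacking untreated replicate 2) to 0.0819 (lacking untreated replicate 3) leaving out 1 sample, and was -0.014 with the block and pair 2 left out. The ratio of EGR1 to NAB2 kept its direction at 0.50 to 1.25 leaving out 1 sample and that of NAB2 to NAB1 at 0.18 to 0.25. The causes of these changes were not tested. The blocked settings other than the first limma and edgeR ones were added after seeing the data. EGR3 and EGR4 had 30 reads or fewer per sample, and the part of depth in their results was not tested.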
